A study of Oncorhynchus mykiss with 24 samples.

Results

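The livers of first-generation hybrid rainbow trout (W/D) were compared with those of domesticated trout (D), with 6 fish in each group and 12 of the 24 arrays of the series. The groups were taken from the tissue label of the fish channel, which names the liver as wild-domesticated or as domesticated. D fish were pure offspring of a commercial strain (Campbell Lake) selected for fast growth. W/D fish were F1 offspring of a D female and a male of a slow-growing wild strain (Pennask Lake). The other 12 arrays held pure wild fish, of the same age (Wa) or, from the year before, of about the same size as D (Ws), and here they served for the estimate of the spread and as side values. By the paper's methods, D, W/D and Wa each came from 1 cross, and W/D fish were smaller than D fish at sampling. The D and W/D crosses shared the same female, and the W/D and Wa crosses shared the same wild male. Genotype, family and body size therefore cannot be told apart in this contrast. By the same methods each family was reared individually under the same culture conditions, so that the rearing unit cannot be told apart from the group either. All fish were fasted before sampling. Each p-value below rests on the spread between fish within groups, pooled over all 24 arrays. That pool includes the Ws fish, which came from randomly mated wild crosses. It measures the spread between these fish and not between other families.

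The liver secretes most plasma proteins, makes and exports lipid, and clears reactive compounds. Glutathione transferases couple glutathione to such compounds or use it to reduce them, superoxide dismutase removes superoxide, and thioredoxin reductase keeps thioredoxin in its reduced form. Lipocalins are small secreted proteins that carry fatty acids, retinoids and other lipophilic molecules. In a growing fish some liver cells also divide, which needs mitotic kinases and the ubiquitin enzymes that drive exit from mitosis. Salmonid genomes went through an extra whole-genome duplication, so that a pair of near-identical genes can share one description, and an oligo may hybridise with both.

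Each array compared the Cy5-labelled RNA of 1 fish with a Cy3-labelled pool of 6 Ws fish, and all values below are log2 ratios of Cy5 over Cy3, in which 0 is the level of the pool. The 6 slides each carried 1 fish of every group, always in the same place, and an effect of place cannot be told apart from the group. The replicate number is the slide. Median Cy5 signals of an array were 214 to 246 in D and 206 to 233 in W/D, and 33.6% to 44.4% and 35.4% to 46.2% of the oligos lay above the local background. The number of arrays limits the precision. The titles of D 4 and D 6 name the same fish while their descriptions differ. After removal of group means these arrays had a correlation of -0.20 across oligos, within the range of -0.30 to -0.08 over all pairs of D fish, and they were kept as separate fish, with a fit on their mean as an alternative. RNA levels per liver were measured, and a change in the share of a cell type cannot be told apart from a change within cells.

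Of the 43689 oligos, 8679 passed the filter on signal. An oligo was called at a fold change of at least 2 and a p of at most 0.05 from limma's moderated test after Benjamini-Hochberg adjustment. In W/D relative to D, 65 oligos were called (0.749%), of which 34 were higher in W/D (0.392%) and 31 were lower (0.357%), and 89 passed on the adjusted p alone (1.03%). Of the 34 higher oligos, 22 had passed the signal filter through the W/D group and not the D group, and of the 31 lower ones 7 had passed through the D group only, so that a dim level in the other group was part of their selection. That also holds where it is not repeated below. A further 5 higher and 3 lower oligos had passed only through a wild group. The split of directions depended on the scaling and on the signal filter. Of the called oligos 52.3% were higher in W/D as reported, 82.6% with each array centred on its median in place of loess, 39.7% with the log2 ratios the authors deposited, and 16.7% of the 18 called with the signal minimum required on all 24 arrays. The median absolute log2 fold change was 1.44 for the called oligos and 0.20 for all oligos tested. With D 4 and D 6 averaged, 49 oligos were called, of which 47 belonged to the 65. Among the 58 called oligos with all 12 values, 28 showed no overlap between W/D and D fish, against 1.28% of the 7551 oligos tested with all 12 values, and 15 of these 28 were higher in W/D (0.662% of all) and 13 lower (0.622%). On every one of the 6 slides the W/D fish lay on the called side of the D fish for 44 of the 58 oligos, and on 5 slides for the other 14. Over all oligos, 3.35% had W/D above D and 2.83% had W/D below D on all 6 slides. Leaving out each of the 12 fish in turn gave between 47 and 74 calls, and 30 of the 65 oligos were called in all 12 of these fits. For the oligos described below, a call lost without 1 fish or under another setting is given beside it, and an oligo that a stricter filter left out does not count as lost.

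**Figure D1:**
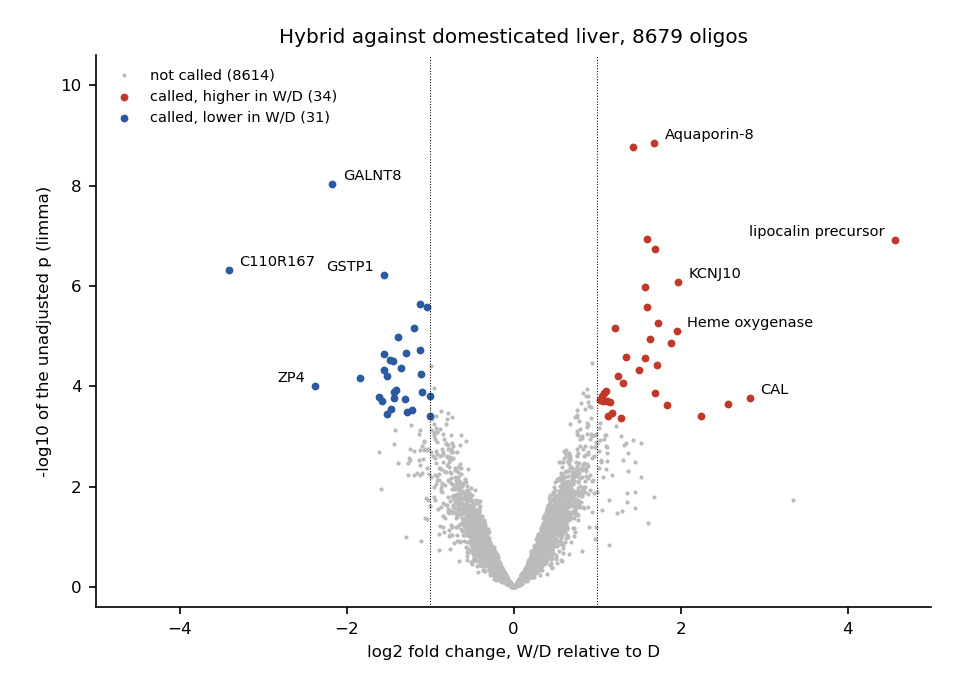
Log2 fold change of W/D relative to D (x axis) against -log10 of the unadjusted p of limma (y axis) for 8679 oligos. Red points are the 34 oligos called higher in W/D, blue points the 31 called lower, grey points were not called, and dotted lines mark a 2-fold change. The lipocalin precursor lies farthest to the right at 4.57 and the unnamed oligo C110R167 farthest to the left at -3.41.

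Names were taken from the study's annotated lists, which cover 486 oligos, 434 of them tested. Because those lists were drawn up from differences between these same fish, a named oligo is more likely to be called than any other: 13.4% of the 434 were called. The counts for gene groups below are descriptions, stand beside that 13.4%, and are not independent of that choice. Of the 65 called oligos, 54 had a name, which made 41 distinct descriptions (24 higher in W/D and 17 lower), 4 were listed as UNKNOWN and 7 were not listed. Several oligos of one description are different probes and may report the same transcript.

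Lipocalins gave the highest value of the contrast. The oligo of the lipocalin precursor (C106R052) ranged from -4.49 to -1.44 in D (median -3.84) and from -1.36 to 3.98 in W/D (median 0.97). No fish overlapped, but D 5 at -1.44 and W/D 5 at -1.36 were nearly level, while W/D 3 at 3.98 was the highest of the 12. The log2 fold change was 4.57 ± 0.67 (SE, adjusted p = 0.000212), and W/D was the higher fish on all 6 slides. The D signal was above the local background on 3 of 6 arrays only. A second oligo of that description (C176R044) had a log2 fold change of 0.14 ± 0.23 (SE, adjusted p = 0.872). The brightest of the 3 oligos for chondrogenesis associated lipocalin (C159R067) ranged from -2.16 to -0.27 in D (median -1.82) and from -0.79 to 5.24 in W/D (median 0.91). W/D 1, 3 and 4 lay at 1.91 or above, W/D 2, 5 and 6 lay at -0.09 or below, and D 1 at -0.27 fell within the hybrid range. Its D signal too was above the background on 3 of 6 arrays. Its log2 fold change was 2.83 ± 0.66 (SE, adjusted p = 0.0272), and the other oligos of this description gave 2.25 and 2.57 (adjusted p = 0.0417 and 0.0308). The same W/D fish were high and low for the lipocalin precursor. Of the 6 tested oligos in the lipocalin list, which also held the GM2 activator protein, 4 were called, all higher (66.7%, beside the 13.4% of all named oligos). All 4 had passed the signal filter through W/D only, so that their direction was part of their selection. The call of C159R067 was lost without D 2, D 3, D 4, D 6, W/D 1, W/D 3 or W/D 4 (adjusted p 0.0539 to 0.0666), and with D 4 and D 6 averaged, with the 12 arrays alone or with the deposited ratios the lipocalin precursor was the only oligo of the 6 that was called. One of the other oligos for chondrogenesis associated lipocalin (C062R003) was also lost without background correction and with plain background subtraction. The lipocalin precursor was also the only oligo of the 6 called without D 2, D 3, D 4, D 6, W/D 1 or W/D 4. Without W/D 3 the lipocalin precursor was the only one called higher. The third oligo for chondrogenesis associated lipocalin (C069R130) was lost without W/D 2 as well.

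Of 13 tested oligos of membrane transporters and channels 4 were called (30.8%, beside the 13.4% of all named oligos), all higher in W/D. Of these 4, aquaporin-8, phospholemman and the phosphate carrier had passed the signal filter through W/D only, so that their direction was part of their selection. Aquaporin-8, a water channel, had the lowest p of all oligos. It ranged from -2.79 to -1.998 in D (median -2.45) and from -0.98 to -0.65 in W/D (median -0.75), so that the W/D fish lay close together and apart from every D fish. The group means differed by 1.68 ± 0.20 (SE, adjusted p = 7.37e-06). The ATP-sensitive inward rectifier potassium channel 10, KCNJ10 in mammals, ranged from -2.90 to -0.39 in D (median -2.32) and from -0.54 to 0.24 in W/D (median 0.02). D 5 at -0.39 stood above W/D 5 at -0.54, and this was the 1 slide of 6 with the D fish higher. This gave a log2 fold change of 1.97 ± 0.32 (SE, adjusted p = 0.000798). Phospholemman, a small protein that regulates the sodium pump, ranged from -1.70 to -0.88 in D (median -1.28) and from 0.14 to 0.74 in W/D (median 0.45) without overlap, with a log2 fold change of 1.72 ± 0.31 (SE, adjusted p = 0.00333). The mitochondrial phosphate carrier, which brings in phosphate for ATP synthesis, ranged from -2.39 to -0.36 in D (median -0.85) and from -1.04 to 0.97 in W/D (median 0.41). Its W/D 6 lay below 4 of the D fish, and the log2 fold change was 1.502 ± 0.32 (SE, adjusted p = 0.0126). All 4 were called in each of the 12 fits that left out 1 fish, and a fit on the 12 arrays alone lost the phosphate carrier. The D signal was above the background on 3 of 6 arrays for the phosphate carrier and on 5 of 6 for the other 3. Without D 5, 6 oligos of the list were called.

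**Figure D2:**
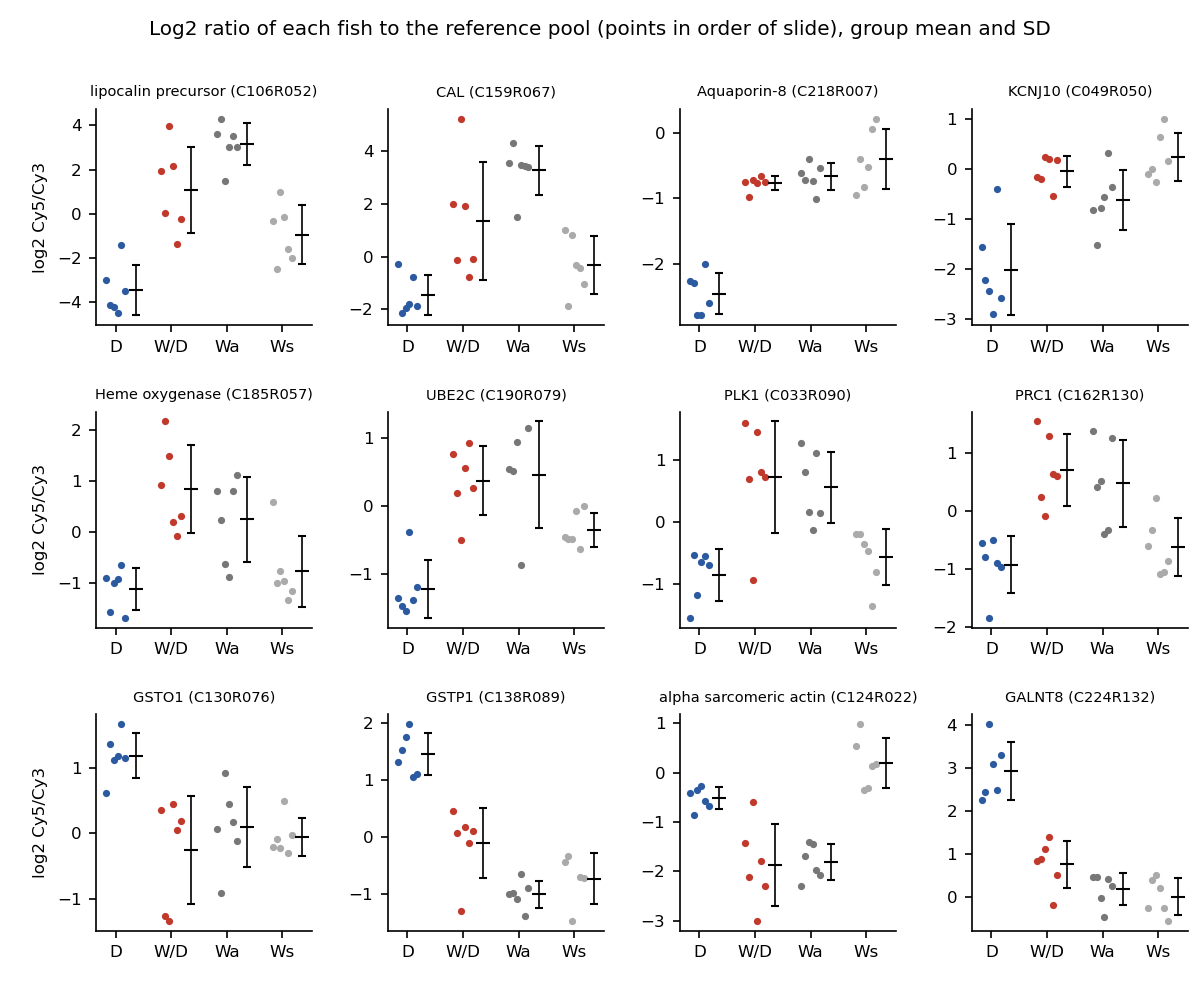
Log2 Cy5/Cy3 (y axis) of 12 named oligos in every fish of the 4 groups, with points in the order of the slides and bars for the group mean and SD (CAL, chondrogenesis associated lipocalin). W/D fish lie apart from D fish for aquaporin-8, heme oxygenase, PRC1, GSTO1, GSTP1 and GALNT8, while the W/D values of both lipocalins spread from near the D fish to 3.98 and 5.24.

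Of 8 oligos for genes of cell division 4 were called (50%, beside the 13.4% of all named oligos), all higher in W/D. UBE2C, the ubiquitin-conjugating enzyme of the anaphase-promoting complex, ranged from -1.55 to -0.39 in D (median -1.37) and from -0.50 to 0.93 in W/D (median 0.41) for the brighter of its 2 oligos. D 4 at -0.39 overlapped with W/D 3 at -0.50, and W/D was higher on all 6 slides. The D signal of this oligo was above the background on 1 of 6 arrays only, so that the fold is against a group mostly not above it. That of the other UBE2C oligo (C174R002) was above it on 5 of 6. The log2 fold changes were 1.59 ± 0.28 (SE, adjusted p = 0.00179) and, for the other oligo, 1.25 ± 0.27 (SE, adjusted p = 0.0148). PLK1, a kinase of mitosis, ranged from -1.55 to -0.52 in D (median -0.66) and from -0.94 to 1.60 in W/D (median 0.77). W/D 3 at -0.94 lay among the D fish, and the other 5 W/D fish were at 0.70 or above. W/D relative to D had a log2 fold change of 1.58 ± 0.32 (SE, adjusted p = 0.00938), with the D signal above the background on 2 of 6 arrays. PRC1, which bundles the microtubules of the spindle midzone, ranged from -1.85 to -0.50 in D (median -0.85) and from -0.10 to 1.54 in W/D (median 0.62) without overlap, and W/D 3 was again the lowest hybrid. The log2 fold change was 1.63 ± 0.31 (SE, adjusted p = 0.00529). The PRC1 signal was not above the local background on any D array and was above it on 5 of 6 W/D arrays. Its mean log2 Cy5 signal was 8.308 in W/D and 6.998 in D, a 2.48-fold difference of means. The D level may lie lower than this dim signal, and the value carries no measure of the spread between fish. The other 4 oligos of the list were not called. Cyclin-E1 had 0.89 ± 0.28 (SE, adjusted p = 0.139), replication factor C subunit 3 0.08 ± 0.26 (SE, adjusted p = 0.95), enhancer of rudimentary -0.44 ± 0.25 (SE, adjusted p = 0.511) and the checkpoint protein RAD1 -0.95 ± 0.26 (SE, adjusted p = 0.0655). UBE2C, PLK1 and PRC1 remained called without any 1 of the 12 fish, and the 12 arrays alone lost 1 UBE2C oligo. PLK1, PRC1 and 1 UBE2C oligo had passed the signal filter only through a wild group, and with a filter on D and W/D alone 1 of 5 tested oligos was called.

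Lipid metabolism held calls in both directions. MID1IP1, which in mammals activates acetyl-CoA carboxylase and so fatty acid synthesis, ranged from -0.77 to -0.03 in D (median -0.36) and from 0.65 to 2.07 in W/D (median 1.25). The groups were apart, with a log2 fold change of 1.60 ± 0.23 (SE, adjusted p = 0.000212) and a D signal above the background on 4 of 6 arrays. The sterol isomerase EBP, an enzyme of cholesterol synthesis, had only 3 W/D values because of quality flags. Its 6 D fish ranged from -1.19 to 0.00 (median -0.42) and the 3 W/D fish from 0.66 to 1.06, with a log2 fold change of 1.35 ± 0.27 (SE, adjusted p = 0.00938). That call was lost without W/D 2 (adjusted p = 0.0587). Acyl-CoA-binding protein, which carries activated fatty acids in the cytosol, ranged from -3.99 to -3.43 in D (median -3.79) and from -2.52 to -1.36 in W/D (median -2.25) and did not overlap. Its log2 fold change was 1.72 ± 0.36 (SE, adjusted p = 0.0112). Lipoprotein lipase, which releases fatty acids from lipoproteins, was split between its 2 oligos. The brighter one (C109R167) had 0.11 ± 0.28 (SE, adjusted p = 0.933), and the other (C227R073) was called at 1.18 ± 0.29 (SE, adjusted p = 0.0394) and lost the call in 9 of the 12 fits without 1 fish, namely D 1, D 2, D 3, D 6, W/D 1, W/D 2, W/D 3, W/D 5 or W/D 6 (adjusted p 0.0512 to 0.116). That call was also lost without background correction, with plain background subtraction and with the deposited ratios, and the D signal was above the background on 3 of 6 arrays. Sphingomyelin phosphodiesterase 4 was lower in W/D, at -1.21 ± 0.30 (SE, adjusted p = 0.0362), and was lost with median centring, with plain background subtraction and without D 1, D 2, D 3, D 4, W/D 2, W/D 3, W/D 4, W/D 5 or W/D 6 (adjusted p 0.0523 to 0.0901). In the list for sterol and fatty acid synthesis 2 of 8 oligos were called higher, and in that for lipid uptake, binding and breakdown 2 of 9 higher and 1 lower. These were 25% and 33.3% of the lists, beside the 13.4% of all named oligos. In the synthesis list 3 of the 8 oligos had a negative value, the lowest -1.26 and not called. Of the 8, 1 was lower at an adjusted p of at most 0.05 with a change under 2-fold. The called oligos of MID1IP1, acyl-CoA-binding protein and lipoprotein lipase had passed the signal filter through W/D only, so that their direction was part of their selection.

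Heme oxygenase, which breaks heme down to biliverdin, ranged from -1.69 to -0.65 in D (median -0.96) and from -0.08 to 2.17 in W/D (median 0.62). W/D 1, 2 and 3 were highest and all W/D fish were above all D fish. The group means differed by 1.96 ± 0.36 (SE, adjusted p = 0.00402). UGT2A1, which couples glucuronic acid to lipophilic compounds, ranged from -3.43 to -2.502 in D (median -3.01) and from -1.90 to 0.51 in W/D (median -1.38), with 2 of the D values missing by a quality flag and W/D 3 the highest. This gave a log2 fold change of 1.88 ± 0.36 (SE, adjusted p = 0.006). All 6 oligos of glucuronosyl- and sulfotransferases had a positive value, with a median of 0.72, but only this 1 was called. The oligo annotated as saxitoxin and tetrodotoxin-binding protein 2, a plasma protein known from pufferfish, ranged from -2.05 to -0.76 in D (median -1.56) and from -0.46 to 1.22 in W/D (median 0.20) without overlap. W/D relative to D had a log2 fold change of 1.83 ± 0.44 (SE, adjusted p = 0.0315), and the call was lost without D 1, D 4, D 5, D 6, W/D 1, W/D 3 or W/D 6 (adjusted p 0.0583 to 0.077), with plain background subtraction and with D 4 and D 6 averaged. Heme oxygenase and UGT2A1 remained called without any 1 of the 12 fish, and with the deposited ratios neither UGT2A1 nor the saxitoxin and tetrodotoxin-binding protein 2 was called. Heme oxygenase, UGT2A1 and this binding protein had all passed the signal filter through W/D only, so that their direction was part of their selection.

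Of 5 oligos of translation factors 1 was called, and of 10 oligos of cytosolic ribosomal proteins 2, in opposite directions (20% of each list, beside the 13.4% of all named oligos). Elongation factor 1-beta, the exchange factor of the elongation step, ranged from -2.07 to -1.0 in D (median -1.77) and from -0.40 to 0.78 in W/D (median -0.03) without overlap, at 1.69 ± 0.25 (SE, adjusted p = 0.000268), with the D signal above the background on 4 of 6 arrays. Ribosomal protein L39 of the large subunit was higher in W/D, at 1.15 ± 0.27 (SE, adjusted p = 0.0292), by an oligo that had passed the signal filter only through a wild group. Its signal was above the background on 3 of 6 arrays in each group, and the call was lost without D 2, D 3, D 4, D 6, W/D 1, W/D 2 or W/D 3 (adjusted p 0.0587 to 0.0808), without background correction, with the deposited ratios and with D 4 and D 6 averaged. Ribosomal protein S21 of the small subunit was lower and ranged from 0.85 to 1.58 in D (median 1.44) and from -0.51 to 0.63 in W/D (median 0.29) without overlap. The log2 fold change was -1.12 ± 0.19 (SE, adjusted p = 0.00179). Without W/D 1 it fell below the 2-fold limit at -0.98, although the adjusted p was still 0.00675, and with median centring it did so at -0.93. Small nuclear ribonucleoprotein F, a core protein of the spliceosome that lies outside the naming rule and was picked after its values were seen, had the second lowest p of the contrast. Its D fish ranged from -2.01 to -1.66 (median -1.75) and its W/D fish from -0.88 to -0.11 (median -0.21), a log2 fold change of 1.43 ± 0.17 (SE, adjusted p = 7.37e-06), with the D signal above the background on 3 of 6 arrays. This oligo and that of elongation factor 1-beta had passed the signal filter through W/D only, so that their direction was part of their selection.

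Both deaminases of pyrimidine metabolism were called, in opposite directions. Cytidine deaminase, which salvages cytidine as uridine, was lower in W/D and ranged from 0.54 to 1.99 in D (median 1.53) and from -0.78 to 0.76 in W/D (median 0.21). D 5 at 0.54 lay below W/D 6 at 0.76, the other D fish lay above every W/D fish, and W/D was lower on all 6 slides. Its log2 fold change was -1.39 ± 0.26 (SE, adjusted p = 0.00495), and it was called without any 1 fish. Deoxycytidylate deaminase, which supplies dUMP for thymidylate synthesis, was higher in W/D by its dimmer oligo, at 1.07 ± 0.25 (SE, adjusted p = 0.0286), and that call was lost without D 4, D 6, W/D 1, W/D 2 or W/D 5 (adjusted p 0.0657 to 0.0971), without background correction, with the 12 arrays alone and with D 4 and D 6 averaged. The brighter oligo (C172R063) had 0.64 ± 0.24 (SE, adjusted p = 0.26). The dimmer one had passed the signal filter only through a wild group. Of the 10 oligos of this list these 2 were the only ones called.

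Glutathione transferases held 6 of the 31 oligos called lower in W/D. GSTO1, the omega-class transferase that reduces dehydroascorbate, had 6 oligos, of which 5 were called lower. The brightest (C130R076) ranged from 0.62 to 1.67 in D (median 1.16) and from -1.33 to 0.46 in W/D (median 0.12). W/D 2 and W/D 3 were lowest at -1.27 and -1.33, and all W/D fish lay below all D fish. The group means differed by -1.44 ± 0.29 (SE, adjusted p = 0.00994). The other called oligos lay between -1.55 and -1.29, and the sixth was at -1.12 ± 0.30 (SE, adjusted p = 0.0618). GSTP1, which conjugates electrophiles, ranged from 1.05 to 1.98 in D (median 1.42) and from -1.29 to 0.46 in W/D (median 0.08), and W/D 3 was far below the rest of its group. This gave a log2 fold change of -1.55 ± 0.24 (SE, adjusted p = 0.000663), and it was called without any 1 fish. Of the 15 oligos of glutathione transferases and peroxidases 6 were called lower (40%, beside the 13.4% of all named oligos) and none higher, with a median of -0.85. The oligo of glutathione S-transferase 3 had 0.42 (adjusted p = 0.456). The theta-class oligos, at -0.85 and -0.76, were not called (adjusted p = 0.122 and 0.297), nor were the kappa-class oligos at 0.11 and 0.23 or those of glutathione peroxidase 2 at -0.03 and 0.02. With each array centred on its median in place of loess, which raised the median of all oligos by 0.14, no GSTO1 oligo was called. Their values were then -1.38 to -0.94 (adjusted p = 0.0579 to 0.213). Without D 4, W/D 2 or W/D 3, 3 of the 6 were called, and C128R060 and C200R084 lost their calls. C128R060 was lost without D 2 as well, and C200R084 without D 6. With the 12 arrays alone both were lost, and with D 4 and D 6 averaged C200R084 was. Of the 6 GSTO1 oligos 2 had passed the signal filter through D only.

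Copper-zinc superoxide dismutase (SOD1) had 14 oligos tested. All 14 had a negative value, with a median log2 fold change of -0.89 and a range of -1.30 to -0.69. Of these 1 was called (7.14%, beside the 13.4% of all named oligos). The brightest (C158R068) ranged from 1.28 to 2.29 in D (median 1.66) and from -1.03 to 2.23 in W/D (median 0.71). The 6 D fish were at 1.28 or above, while the W/D fish fell into a lower set (1, 4 and 5, at -0.13 or below) and a set level with D (2, 3 and 6, at 1.56 or above). W/D relative to D had a log2 fold change of -1.09 ± 0.36 (SE, adjusted p = 0.163). The called oligo (C033R092) had -1.30 ± 0.30 (SE, adjusted p = 0.0277), and that call was lost without D 1, D 2, D 4, W/D 1, W/D 4 or W/D 5 (adjusted p 0.0637 to 0.0787). The methods' ANOVA with Tukey's test called 3 of the 14, plain background subtraction or the 12 arrays alone 0, and the fits without 1 fish between 0 (without D 1, D 2, D 4, W/D 1, W/D 4 or W/D 5) and 3 (without W/D 2). TXNRD3, a thioredoxin reductase, had 1 W/D value missing and ranged from 0.37 to 1.19 in D (median 0.78) and from -0.68 to 0.28 in W/D (median -0.26). At -1.001 ± 0.23 (SE, adjusted p = 0.0262) it lay close to the 2-fold limit and was lost without D 1, D 3, D 4, W/D 2, W/D 3, W/D 4 or W/D 5 (adjusted p 0.0472 to 0.079), where it missed the limit on the adjusted p, the fold or both. With the slide as a replicate block it had -1.04 (adjusted p = 0.0872) and was not called. It was lost as well without background correction, with median centring, with no signal filter, with the quality flag disregarded and with D 4 and D 6 averaged. It was the only called oligo of 9 in the thioredoxin and peroxiredoxin list, whose median was 0.26.

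**Figure D3:**
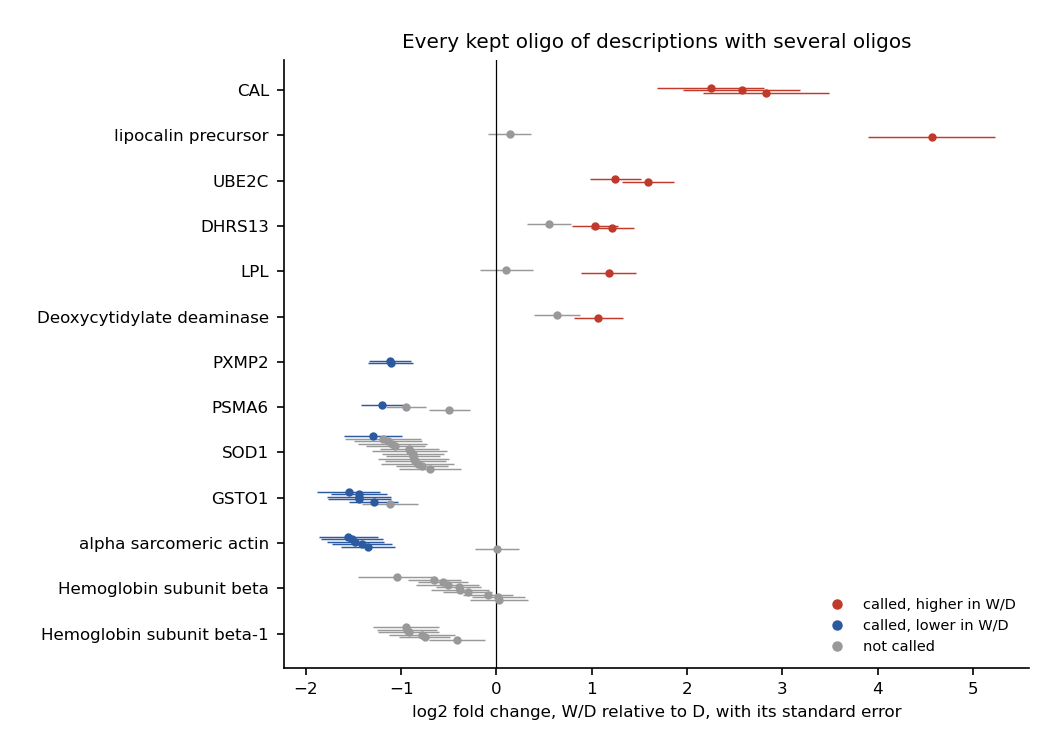
Log2 fold change of W/D relative to D (x axis) with its standard error for every tested oligo of 13 descriptions with several oligos (y axis). Red and blue points were called higher and lower in W/D and grey points were not called. All 14 SOD1 oligos and all 6 GSTO1 oligos lie to the left of 0, and 1 of 6 alpha sarcomeric actin oligos lies at 0.01.

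Alpha sarcomeric actin, an actin of the contractile fibres of muscle, was called lower in W/D by 5 of its 6 oligos. The brightest (C124R022) ranged from -0.86 to -0.26 in D (median -0.49) and from -3.0 to -0.59 in W/D (median -1.95). W/D 4 was the lowest fish, and W/D 3 at -0.59 was level with the D fish, so that the groups overlapped. The log2 fold change was -1.35 ± 0.28 (SE, adjusted p = 0.012), and those of the other called oligos were -1.55 to -1.41. The sixth oligo (C232R115) had 0.01 ± 0.23 (SE, adjusted p = 0.995). On the muscle marker list, alpha-actinin-2 had -0.09 ± 0.33 (SE, adjusted p = 0.953) and muscle-type phosphofructokinase -0.43 ± 0.22 (SE, adjusted p = 0.431), so that 5 of 8 marker oligos were called and all 5 were of actin. The mean log2 ratio of the 8 ranged from -0.69 to 0.01 in D (median -0.40) and from -2.07 to -0.54 in W/D (median -1.44). The part of other tissue in these values was not tested. Median centring and the 12 arrays alone each left 4 of the 5 called. Of the 5 called oligos, 4 remained called without any 1 fish, and C124R025 was lost without D 4, W/D 2 or W/D 4 (adjusted p 0.0554 to 0.0697).

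No marker of red blood cells, B cells, pancreas or liver was called in this contrast. None of the 19 hemoglobin oligos was called by limma or by the methods' test, but 9 were lower in W/D at an unadjusted p of at most 0.05 and 0 higher. Of all 8679 oligos 12% reached that unadjusted p, beside which the counts at it in this paragraph stand. The median log2 fold change of the hemoglobin oligos was -0.51, and the mean log2 ratio over them ranged from 0.09 to 2.16 in D (median 0.63) and from -0.15 to 0.71 in W/D (median 0.16). Without D 6 or W/D 6, and with the deposited ratios, 1 hemoglobin oligo was called lower. Of the 11 oligos of liver-defining plasma proteins (albumin, apolipoproteins, fibrinogen, complement C3 and others), 0 were called by limma and 1 by the methods' test, lower in W/D, and 3 had an unadjusted p of at most 0.05. All 11 were above the background on all arrays of D and W/D. Of the 5 oligos of immunoglobulin and B cell markers, 0 were called by either test, with 3 at an unadjusted p of at most 0.05. The 1 oligo of the pancreas marker trypsinogen-like protein 3 had a log2 fold change of -0.04. The part of these cells in the results above was not tested. Of 17 oligos of complement and lectins, which opsonise microbes or bind their sugars, 0 were called by limma and 2 by the methods' test, both lower, with 1 higher and 5 lower at an unadjusted p of at most 0.05. Of 11 oligos for protein folding in the endoplasmic reticulum 0 were called by either test and 0 had an unadjusted p of at most 0.05. Of 10 transposon and TFIIF alpha domain oligos 0 were called by either test, 1 passed limma's adjusted p with a change under 2-fold, and 2 higher and 2 lower had an unadjusted p of at most 0.05.

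**Figure D4:**
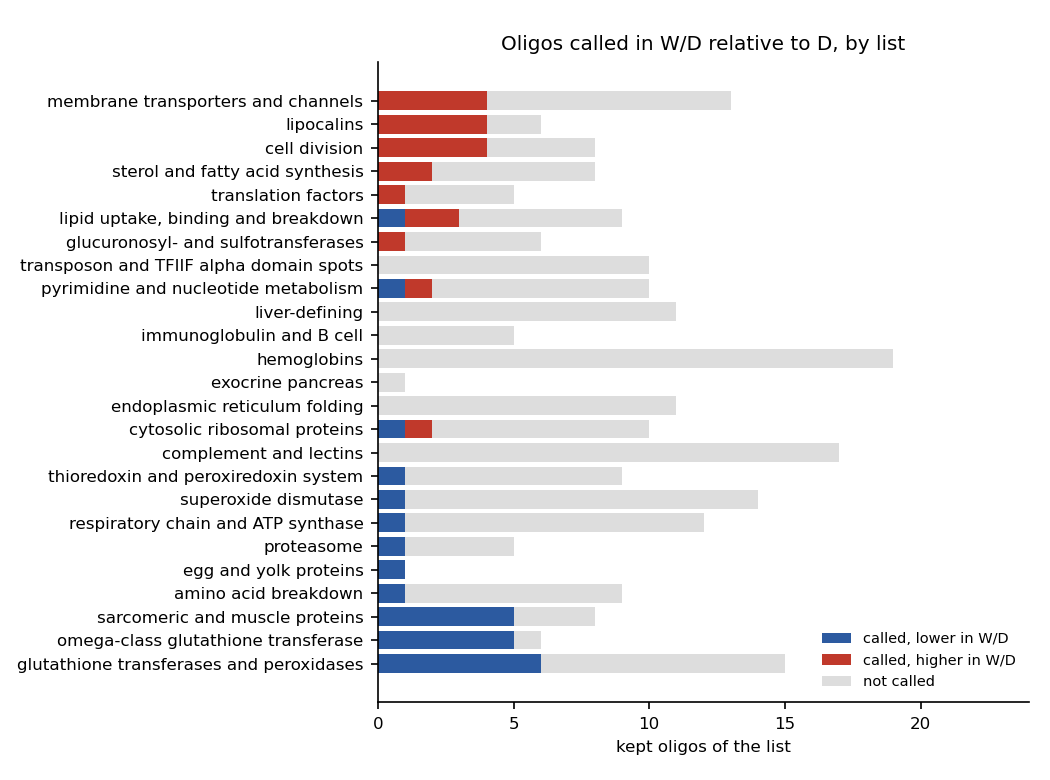
Number of tested oligos in each gene list (x axis), with the part called higher in W/D in red, called lower in blue and not called in grey. Transporters, lipocalins and cell division hold 4 called oligos each, all higher, while glutathione transferases and peroxidases hold 6 called lower, 5 of which also form the omega-class bar.

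Further calls lay outside these groups. GALNT8, an enzyme that starts mucin-type sugar chains, ranged from 2.26 to 4.02 in D (median 2.79) and from -0.18 to 1.40 in W/D (median 0.87), with D 3 highest at 4.02 and no overlap, and its log2 fold change was -2.17 ± 0.28 (SE, adjusted p = 2.64e-05). Zona pellucida protein 4, a protein of the egg coat, had 5 D values and ranged from -0.50 to 1.55 in D (median 0.24) and from -2.91 to 0.10 in W/D (median -2.31). W/D 2 at 0.10 lay within the D range and above D 2 on its own slide. Its log2 fold change was -2.37 ± 0.52 (SE, adjusted p = 0.0217), and the call was lost without D 5, D 6 or W/D 1 (adjusted p 0.0503 to 0.0701). The sex of the fish is not given in the sources used here, and its part was not tested. Type-4 ice-structuring protein LS-12, known from a sculpin, was lower at -1.84 ± 0.38 (SE, adjusted p = 0.0158), but only 3 values in each group and 1 slide with both were left after quality flags. The call of LS-12 was lost without D 4, W/D 1 or W/D 6 (adjusted p 0.0587 to 0.0789), and its oligo had passed the signal filter only through a wild group. Cytochrome c oxidase subunit 4 isoform 2 of the respiratory chain ranged from -0.45 to 1.11 in D (median 1.001) and from -1.45 to 0.04 in W/D (median -0.88), at -1.47 ± 0.36 (SE, adjusted p = 0.036), and lost its call in 9 of the 12 fits without 1 fish, namely D 1, D 2, D 4, D 5, D 6, W/D 1, W/D 3, W/D 4 or W/D 5 (adjusted p 0.0518 to 0.0854). It was the only called oligo of 12 for the respiratory chain and ATP synthase, and neither the methods' test nor median centring called it. LS-12 was also lost in both, and cytochrome c oxidase subunit 4 isoform 2 with plain background subtraction and with D 4 and D 6 averaged as well. DHRS13, a short-chain dehydrogenase of unsettled substrate, had 2 of 3 oligos called higher, at 1.22 and 1.03 (adjusted p = 0.0037 and 0.0286). Both were lost without background correction, the second also with the 12 arrays alone and in 7 of the 12 fits without 1 fish, namely D 1, D 2, D 3, D 6, W/D 1, W/D 2 or W/D 6 (adjusted p 0.0556 to 0.0845). The brightest of the 3 (C168R126) had 0.55 ± 0.23 (SE, adjusted p = 0.331). Both called DHRS13 oligos had passed the signal filter through W/D only, so that their direction was part of their selection.

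AGXT and PXMP2 were lower in W/D. AGXT, which in mammals clears glyoxylate in peroxisomes or mitochondria, ranged from 0.46 to 1.20 in D (median 1.08) and from -0.41 to 0.27 in W/D (median -0.14) without overlap. The group means differed by -1.04 ± 0.18 (SE, adjusted p = 0.00179), and without D 5, D 6 or W/D 4 it fell below the 2-fold limit, to 0.98 in size at the least, with an adjusted p of at most 0.00889. The peroxisomal membrane channel PXMP2 had both of its oligos called, at -1.11 and -1.12. The brighter (C211R045) ranged from 0.70 to 1.57 in D (median 0.86) and from -1.13 to 0.64 in W/D (median 0.02) without overlap and at -1.11 ± 0.24 (SE, adjusted p = 0.0145), and without D 1 or W/D 3 it fell below 2-fold (0.91 in size at the least, adjusted p at most 0.0444). With median centring neither AGXT nor PXMP2 was called, and AGXT was also lost with D 4 and D 6 averaged and C211R045 with the 12 arrays alone. PSMA6, a subunit of the proteasome core, was called by 1 of its 3 oligos (C252R010), at -1.20 ± 0.22 (SE, adjusted p = 0.0037), in all fits without 1 fish. The brightest (C026R066) ranged from 0.04 to 0.65 in D (median 0.28) and from -1.03 to 0.20 in W/D (median -0.84), and at -0.95 ± 0.21 (SE, adjusted p = 0.0235) it lay just under the 2-fold limit. All 5 proteasome oligos had a negative value, with a median of -0.50. In amino acid breakdown, AGXT was the only one of 9 oligos called.

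Unnamed oligos were called in both directions and included the largest decrease. C110R167, listed as UNKNOWN, ranged from -0.46 to 0.83 in D (median 0.31) and from -3.90 to -2.72 in W/D (median -3.004), so that every W/D fish lay far below every D fish. This gave a log2 fold change of -3.41 ± 0.54 (SE, adjusted p = 0.000607), and its W/D signal was above the background on 2 of 6 arrays only. It was called without any 1 fish. Most of C110R167, C230R090, GALNT8, cytidine deaminase, TXNRD3 and the PXMP2 oligo C211R045 had passed the signal filter through D only. The direction of such oligos was part of their selection. C179R087, C230R090 and C238R071 were lower by 1.61, 1.58 and 1.51 on the log2 scale (adjusted p = 0.0266, 0.0286 and 0.0407), and each was lost in 6 of the 12 fits without 1 fish. C179R087 and C238R071 had passed the signal filter only through a wild group. C179R087 was lost without D 1, D 3, D 4, D 6, W/D 2 or W/D 4 (adjusted p 0.0587 to 0.0842), C230R090 without D 2, D 4, D 6, W/D 2, W/D 3 or W/D 5 (adjusted p 0.0512 to 0.0842) and C238R071 without D 2, D 3, D 4, W/D 4, W/D 5 or W/D 6 (adjusted p 0.0796 to 0.163). With D 4 and D 6 averaged C179R087 and C230R090 were lost, with the 12 arrays alone C179R087 and C238R071, with plain background subtraction and with median centring C230R090 and C238R071, with the deposited ratios C179R087, by the methods' test C230R090 and with the quality flag disregarded C238R071. Higher in W/D were C141R063, listed as UNKNOWN, at 1.57 ± 0.26 (SE, adjusted p = 0.000926), and C002R046 at 1.69 ± 0.39 (SE, adjusted p = 0.025). C141R063 was called without any 1 fish. It had passed the signal filter through W/D only, so that its direction was part of its selection. C002R046 was lost without D 4, D 5 or W/D 4 (adjusted p 0.0503 to 0.0597), with plain background subtraction and by the methods' test. C095R080, C111R085, C125R015 and C146R066 were higher as well and lost their calls in 8, 7, 5 and 9 of the 12 fits without 1 fish. C008R048 was lower and lost its call in 10 of them. Other settings lost these calls too, namely 5, 4, 3 and 6 settings for the higher oligos in that order and 4 for C008R048. C095R080, C111R085 and C146R066 had passed the signal filter through W/D only, so that their direction was part of their selection. C008R048 and all the higher unnamed oligos lie outside the naming rule and were picked after their values were seen. The called descriptions not named so far were METTL4 (a methyltransferase-like protein), butyrophilin 1A1 and VCAM1, which were higher in W/D at 1.31, 1.11 and 1.11, and profilin-2 and WDR12, which were lower at -1.09 and -1.005. These 5 were chosen after their values were seen, and the D signal of VCAM1 was above the background on 3 of 6 arrays. VCAM1 had passed the signal filter through W/D only, so that its direction was part of its selection. WDR12 was called in 1 of the 12 fits without 1 fish (without D 1), and its adjusted p in the others was 0.0506 to 0.108. Profilin-2 was lost without D 2, D 3, D 4, W/D 1, W/D 2 or W/D 3 (adjusted p 0.0522 to 0.0631), VCAM1 without D 3, D 4, D 5, D 6, W/D 2, W/D 3 or W/D 4 (adjusted p 0.0522 to 0.0768), METTL4 without D 1, D 6 or W/D 3 (adjusted p 0.0512 to 0.0589) and butyrophilin 1A1 without W/D 4 or W/D 6 (adjusted p 0.0529 to 0.0571). Without background correction, all of these but METTL4 were lost. Median centring lost profilin-2 and WDR12, the average of D 4 and D 6 lost VCAM1 and WDR12, the deposited ratios lost butyrophilin 1A1, and plain background subtraction and the lack of a signal filter lost WDR12. Just outside the limits, 24 oligos passed the adjusted p with a change under 2-fold, among them NADP-dependent malic enzyme at -0.87 and annexin A11 at 0.81.

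The levels in the wild groups are given beside those of D and W/D. W/D relative to Wa or Ws shares the W/D fish with the contrast by which the oligos were chosen. The tests against the wild groups are therefore not independent of that choice. Aquaporin-8 had a mean of -0.67 in Wa, -0.40 in Ws, -2.45 in D and -0.77 in W/D, and GALNT8 of 0.18 in Wa, 0.01 in Ws, 2.93 in D and 0.76 in W/D. The GALNT8 signal was above the background on 2 of 6 arrays in Wa and in Ws, so that its wild means lie near the floor. The aquaporin-8 mean of the hybrids was closer to the wild means than to that of D. For aquaporin-8 and GALNT8, neither W/D relative to Wa (adjusted p = 0.891 and 0.373) nor relative to Ws (0.351 and 0.136) passed the test. GSTP1 had -1.001 in Wa, -0.73 in Ws, 1.45 in D and -0.10 in W/D, an intermediate hybrid mean. The lipocalin precursor had 3.17 in Wa, -0.96 in Ws, -3.48 in D and 1.08 in W/D, again with the hybrid between D and Wa, at an adjusted p of 0.132 for W/D relative to Wa. UBE2C had 0.46 in Wa, -0.36 in Ws, -1.22 in D and 0.37 in W/D, with a Ws signal above the background on 2 of 6 arrays. Among the named oligos, 7 had a W/D mean outside the means of the other 3 groups and W/D called against 1 wild group or both. Heme oxygenase, PRC1, PLK1 and the actin oligo C124R022 were called against Ws only. The saxitoxin and tetrodotoxin-binding protein 2 was called against Wa only and had means of -2.45 in Wa, -1.15 in Ws, -1.52 in D and 0.32 in W/D (W/D relative to Wa 2.76 ± 0.44, adjusted p = 0.000263, and relative to Ws 1.46 ± 0.44, adjusted p = 0.0623), with the Wa signal above the background on 3 of 6 arrays. C179R087 was called against Ws only, with 0.15 in Wa, 0.50 in Ws, 0.34 in D and -1.27 in W/D (W/D relative to Wa -1.42 ± 0.37, adjusted p = 0.0522, and relative to Ws -1.77 ± 0.37, adjusted p = 0.00644). C110R167 was called against both, with -1.02 in Wa, -0.58 in Ws, 0.26 in D and -3.15 in W/D. Its W/D level was below Wa by 2.13 ± 0.54 (adjusted p = 0.0384) and below Ws by 2.56 ± 0.54 (adjusted p = 0.00591). These oligos were singled out here after their values were seen. Their choice by W/D relative to D favours extreme W/D values, so that the calls against the wild groups are descriptions. The share of all oligos with this pattern was not counted.

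**Figure D5:**
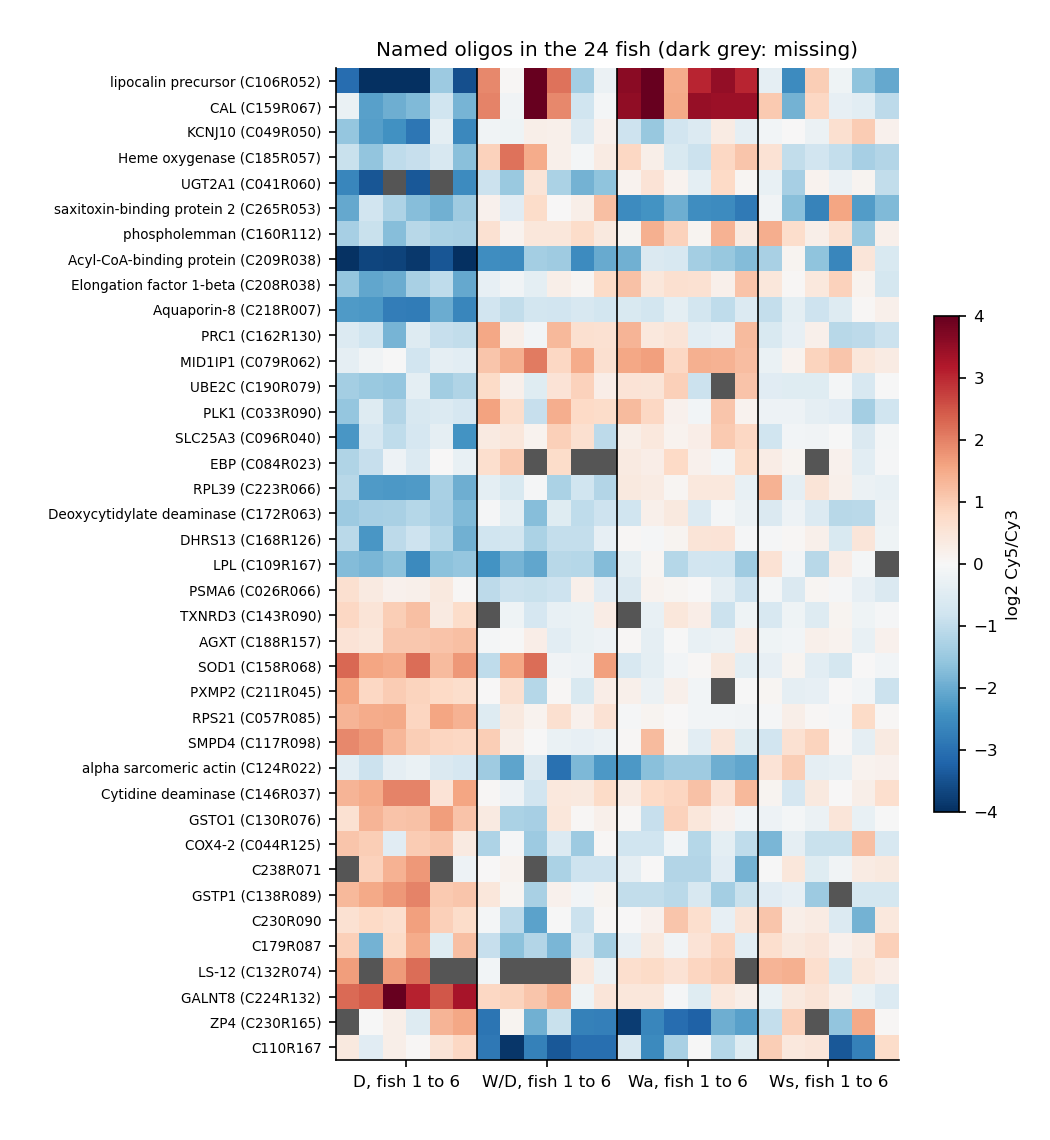
Log2 Cy5/Cy3 (colour, limited to -4 to 4) of the 39 named oligos (rows, ordered by the log2 fold change of W/D relative to D) in the 24 fish (columns, by group and slide), with missing values in dark grey. The W/D columns differ from the D columns by the choice of rows, and the W/D fish 1, 3 and 4 are the highest hybrids for both lipocalins at the top.

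Wa relative to Ws shares no fish with the contrast, but both were tested in 1 fit with the same spread, pooled over all 24 arrays. The calls of the 2 comparisons are therefore not independent. Wa relative to Ws sets smaller against larger wild fish of different age. In it 77 oligos were called (0.887%), and 10 oligos were called in both, which was 15.4% of the calls of W/D relative to D and 13% of those of Wa relative to Ws. All 10 had the same direction, with 4 higher in W/D and in Wa and 6 lower in both. They came from 4 descriptions: the lipocalin precursor, the 3 oligos of chondrogenesis associated lipocalin, the 5 called oligos of alpha sarcomeric actin, and zona pellucida protein 4. In Wa relative to Ws the lipocalin precursor had a log2 fold change of 4.12 ± 0.67 (adjusted p = 0.000743), the actin oligo C124R022 -2.01 ± 0.28 (adjusted p = 0.000189) and zona pellucida protein 4 -2.81 ± 0.52 (adjusted p = 0.00394). GSTO1 (C130R076), SOD1 (C158R068) and aquaporin-8 had values of 0.15, 0.06 and -0.26 there and were not called (adjusted p = 0.846, 0.958 and 0.549). Without D 4 or W/D 4 the count called in both was 6.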

How the data were processed

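Livers of 24 trout were compared by 2-colour hybridisation on a 44K salmonid oligonucleotide array, with the Cy5-labelled RNA of each fish against a Cy3-labelled pool and no dye swap. Intensity values (spot signal and local background of both channels) were deposited as quantified in ImaGene, without background correction. The deposited log2 ratios, which the authors made in GeneSpring by a threshold, LOWESS and centring of each oligo on its median over all samples, served as an alternative; their correlation with the ratios used here was 0.859 to 0.926 per array, and the column medians were -0.000711 to 0.00294. Gene names were taken from the paper's lists of annotated oligos.

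Signal means and background medians were corrected with normexp (offset 50) and normalised by loess within each array in limma 3.58.1 (R 4.3.3), with control spots and flagged spots at weight 0. Flag 3, which the sources used here do not define and which all saturated spots carry, was treated as missing (1.91% of the D and W/D values). Oligos were kept with a Cy5 signal of at least 300 and no flag in every fish of 1 group or more, and with a value in each group. An oligo counted as above background on an array when Cy5 exceeded the local mean by 2 SD. One mean per group was fitted over all 24 arrays, and W/D minus D was tested two-sided with Benjamini-Hochberg adjustment over 8679 oligos. Where a group had missing values, the fit used the fish left. The fit was also run on simulated data with independent normal errors and known shifts in W/D. That run modelled neither the signal filter nor dim groups, so that it does not test calls near the background.

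The design text ties the replicate number to the slide. Deviations from the group means of same-slide D and W/D fish had correlations of -0.0445 to 0.0874 (0 over 0.1), and the main fit had no block. Named oligos were every description with at least 2 called oligos, the 10 called oligos with the largest change in each direction, and called oligos of the gene lists, and a description with several oligos was represented by its brightest. The oligos and lists were chosen with earlier results of these data known. Alternatives were other background corrections, scalings, filters, arrays and tests, including the methods' one-way ANOVA with Tukey's test, and leaving out each fish.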

Additional observations from a re-analysis of the deposited data

Results flagged for a closer look

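The 75 combinations of a named oligo and a group with at least 4 measured fish were checked by Dixon's criterion. In 8 of them, each with 6 measured fish, 1 fish lay far from the rest, which chance alone meets in about 1 of 20 groups. No explanation was tested for any of them. Among the D fish, fish 4 stood apart for ribosomal protein S21 (C057R085), at a log2 ratio of 0.85 against a nearest value of 1.37. The same fish was lowest for the brightest lipoprotein lipase oligo (C109R167), at -2.55 against -1.82, and highest for UBE2C (C190R079), at -0.39 against -1.20, and for the unnamed oligo C230R090, at 1.63 against 0.94. D 3 was lowest for PRC1 (C162R130), at -1.85 against -0.98. Among the W/D fish, fish 3 was lowest for GSTP1 (C138R089), at -1.29 against -0.11, and for PLK1 (C033R090), at -0.94 against 0.70. W/D 2 was lowest for aquaporin-8 (C218R007), at -0.98 against -0.77, in a group whose other fish lay within -0.77 to -0.65.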

How the results depend on the processing

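The count of 65 called oligos lay between 49 and 74 under the 10 other settings that kept the signal filter or widened it to flagged spots or narrowed it to D and W/D, and 18 were called with the signal minimum required on all 24 arrays (all 18 among the 65), 112 without a filter on signal, 27 with the adjusted p limit set to 0.01, and 47 to 74 without 1 fish. The count at the adjusted p alone, 89, was 29 with the minimum on all arrays, 59 with D 4 and D 6 averaged, 218 by the methods' ANOVA with Tukey's test, and 55 to 104 without 1 fish. The share of called oligos higher in W/D, 52.3%, was 82.6% with median centring, which moved the median of all oligos by 0.139, and 16.7% with the minimum on all arrays. With the minimum on all arrays 4322 oligos were tested. Of the 65 calls, 6 of the 34 higher and 20 of the 31 lower had passed the signal filter through both D and W/D. The cause of either shift was not tested. With the slide as a replicate block 74 oligos were called, 64 of them among the 65, and 55.4% were higher. Among the named oligos TXNRD3 alone lost its call there, at -1.036. The 10 oligos called also in Wa relative to Ws were 2 with the minimum on all arrays and 6 to 11 without 1 fish. The brightest lipoprotein lipase oligo (C109R167), 0.11 and not called, turned to -0.04, -0.02 and -0.01 without D 4, W/D 4 and W/D 5, within a range of -0.04 to 0.24 without 1 fish. No called oligo changed its sign in any setting, and 22 of the 65 were called in every setting that tested them. Alternatives for the gene lists and for the count shared with Wa relative to Ws were added after the data were seen. The contrast is limited by having 1 fish of each group per slide, by dim D or W/D signals and by 1 family per group.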

Other observations

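Beside the called oligos, 24 passed the adjusted p of limma with a change under 2-fold, and 10 of them had a description. They were chosen by that limit after the values were seen. NADP-dependent malic enzyme, which supplies NADPH for fatty acid synthesis, had a log2 fold change of -0.87 ± 0.21 (SE, adjusted p = 0.0369), and carbonyl reductase 1, which reduces carbonyl compounds with NADPH, had -0.78 ± 0.19 (adjusted p = 0.0395). The other carbonyl reductase 1 oligos had -0.66 and -0.49. Zinc-binding protein A33 had -0.93 ± 0.23 (adjusted p = 0.0417) by 1 of its oligos, while the other had 0.42 (adjusted p = 0.579). Higher in W/D were the CPEB-associated factor Maskin, a translational regulator known from Xenopus, at 0.88 ± 0.20 (adjusted p = 0.0237), a Tc1 transposase oligo at 0.86 ± 0.20 (adjusted p = 0.0263), annexin A11 at 0.81 ± 0.19 (adjusted p = 0.0301), the gamma-secretase subunit PEN-2 at 0.76 ± 0.18 (adjusted p = 0.0362) and NEDD4 family-interacting protein 1 at 0.74 ± 0.19 (adjusted p = 0.0428). The other oligo of NEDD4 family-interacting protein 1 had 0.25 (adjusted p = 0.613), and the other Tc1 transposase oligos had 0.09 each.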
